A study of Mus musculus with 6 samples.

Results

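Tripartite motif (TRIM) genes were followed in mouse plasmacytoid dendritic cells stimulated through TLR7 with or without taurine. A gene was taken as a member when its symbol was Trim followed by a number and at most 1 letter and its normalized count averaged at least 10 over the 6 libraries. Of 52550 genes in the files, 68 carried such a symbol and 43 reached this level. The other 25 were below it, and 16 of those had no read in any library. Just inside the floor lay Trim17 with a mean normalized count of 15.7, and just outside it lay Trim43a with 9.79 and Trim55 with 8.61.

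The cells came from the spleen of C57BL/6 mice and were all stimulated for 12 hours with R837, the imidazoquinoline imiquimod, which activates TLR7. In 3 libraries taurine, an amino sulfonic acid, was given together with R837, and in 3 libraries R837 was given alone. No unstimulated cells were analysed here, so each value describes stimulated cells. The labels do not say whether the 3 libraries of a group derive from different mice or wells, and p-values therefore measure the spread between libraries, which may be technical.

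Most TRIM proteins carry a RING domain, a B-box and a coiled coil, and act as E3 ubiquitin ligases. Several attach ubiquitin to nucleic acid sensors and their adaptors, many are induced by interferon, and some bind retroviral capsids or silence retroviral DNA. Plasmacytoid dendritic cells make type I interferon through TLR7 and the factor IRF7, which several TRIM proteins are reported to protect or to mark for degradation.

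Each library held between 33585080 and 38392654 reads on genes, and TRIM members took between 0.330% and 0.412% of them. The 13 plasmacytoid marker genes, among them Siglech, Bst2, Irf8 and Ly6d, were all read in every library. They summed to 411395 to 424216 normalized counts in R837 plus taurine libraries and 391097 to 427637 in R837 libraries. Irf8 (101959 to 108289 over the 6 libraries) and Ly6d (94008 to 121261) led this sum, while Siglech had 10336 to 13384. Of these 13 genes, Bst2 and Cox6a2 were higher with taurine and Tcf4, Runx2, Pacsin1 and Klk1 were lower. As a reference for this and the other marker lists, 3.75% of all tested genes were higher and 2.66% lower by limma. B cell markers summed to 1966 to 2680.5 with taurine and 1806 to 2863 without, and T cell markers to 5003 to 6419 and 5119 to 6263. Of the 6 T cell genes, Cd3d and Cd3g were at 0 in all 6 libraries, while Cd8b1 had between 3908 and 5175 normalized counts and Cd4 between 881 and 1294 over the 6 libraries. Conventional dendritic cell markers summed to 23203 to 24331 with taurine and 27672 to 30062 with R837 alone, neutrophil markers to 1687 to 1931 and 1161 to 1659.6, and erythroid markers to 169.6 to 269 and 91.4 to 143. These 3 sums did not overlap between the groups, with 2 of 6 conventional dendritic genes lower, 1 of 6 neutrophil genes higher and 1 of 5 tested erythroid genes higher, and their part in the results on TRIM genes was not tested. Macrophage and monocyte markers summed to 20557 to 25484 with taurine and 19294 to 20656 with R837 alone, sums that overlapped, with 1 of 7 genes higher, Fcgr1 (log2 change 0.86, adjusted p = 0.00977 by limma), and their part was not tested either. The erythroid gene Trim10 had no read in any library, and Trim58, which acts in the enucleation of red cell precursors, averaged 1.26 normalized counts.

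The share of TRIM transcripts that differed with taurine was near that of all tested genes. Trim30c was higher and Trim44 was lower in R837 plus taurine libraries, and the other 41 members passed no test (limma on log2 of normalized count plus 1, Benjamini-Hochberg over 15265 tested genes, adjusted p under 0.05). That is 4.65% of members, beside 6.41% of all tested genes, of which 573 (3.75%) were higher and 406 (2.66%) lower with taurine. This balance depended on scaling: 462 genes were higher and 586 lower when library totals left out the 50 genes with most reads, and 662 were higher and 303 lower once dependence on GC and exon length was taken out of each library, while 1 member was higher and 1 lower under both. The median log2 change of the 43 members was -0.07, beside -0.01 for all tested genes, and 12 members had a positive value. An absolute log2 change under 0.2 was found for 23 members and one of at least 1 for 3 members. In RNA from a bulk population, fewer cells that carry a transcript and less of it per cell cannot be told apart.

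**Figure D1:**
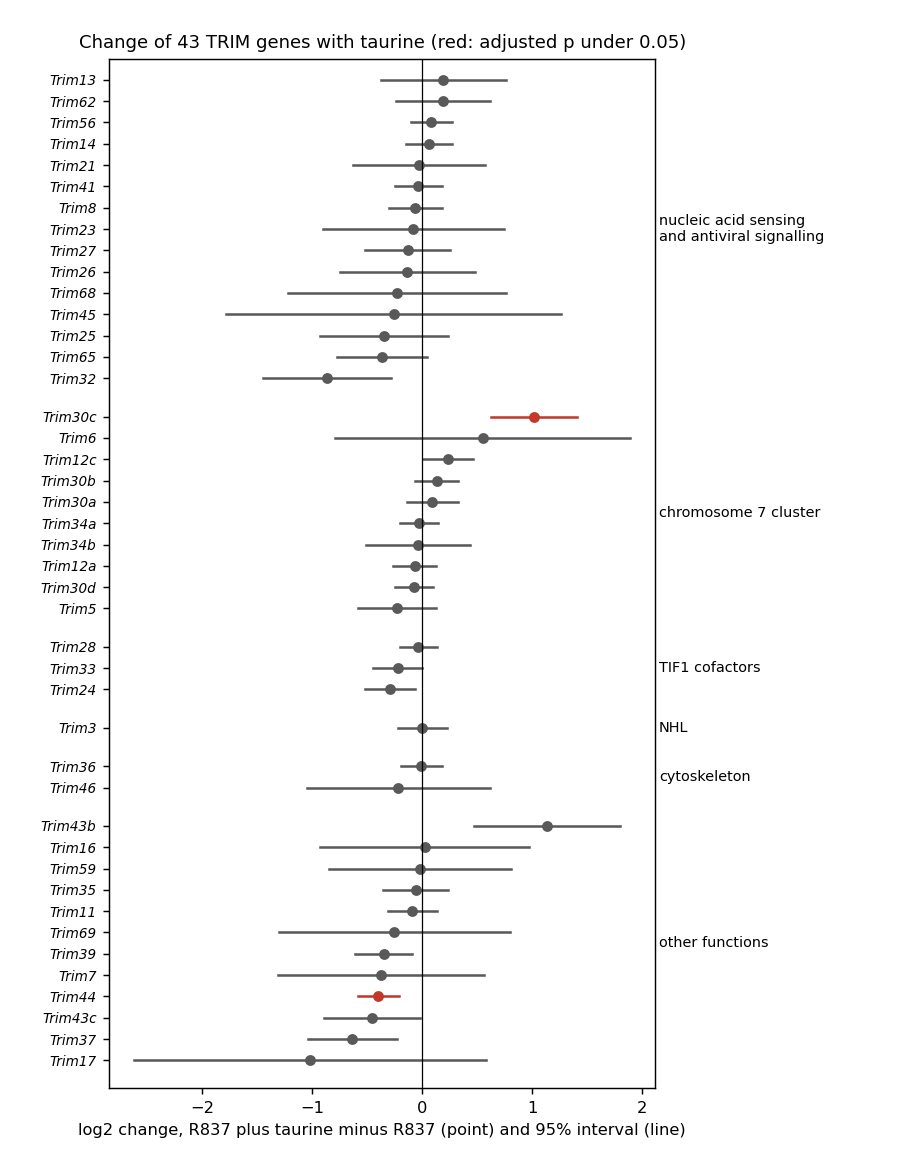
Log2 change of each of the 43 TRIM genes, R837 plus taurine minus R837 (horizontal axis, limma estimate on log2 of normalized count plus 1), with its 95% interval, grouped by role. Trim30c at 1.02 and Trim44 at -0.40 are the red points, and most other intervals cross 0.

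Without regard to a test, the 3 libraries of each group did not overlap for 10 of the 43 members, 3 of them higher with taurine (Trim30c, Trim43b and Trim30b) and 7 lower (Trim44, Trim37, Trim32, Trim39, Trim24, Trim43c and Trim33). Among all tested genes 29.6% had groups that did not overlap, 14.6% higher and 15% lower. Summed over all members, the signal was 144602, 141352 and 120633 normalized counts in R837 plus taurine replicates 1 to 3, against 136503, 135854 and 144065 in R837 replicates 1 to 3. The lowest of these 6 sums was taurine replicate 3, the highest was taurine replicate 1, and the groups overlapped.

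Levels of the members spanned a wide range. Per kb of exon, Trim30a was highest with a mean of 10672 normalized counts over the 6 libraries, followed by Trim30d with 5108 and Trim25 with 2918. Trim30a and Trim30d were each separated from the next gene in every library. Next came Trim12c with 1463, Trim28 with 1335 and Trim34a with 1332 per kb, and in this order Trim25, Trim12c and Trim28 each overlapped the gene that follows. Trim17 was at the low end with 4.19 per kb. Trim30a alone took 31.98% of the members' signal and, with Trim30d and Trim25, 58.2%.

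Trim30a, Trim30b, Trim30c and Trim30d lie side by side on mouse chromosome 7 with Trim5, Trim6, Trim12a, Trim12c, Trim34a and Trim34b, and all 10 genes were members. The cluster holds the mouse relatives of human TRIM5, a restriction factor that binds retroviral capsids. Taurine was accompanied by a higher level of 1 of these 10 genes, Trim30c, and by no lower one, with a median log2 change of 0.03 over the cluster. The cluster as a whole summed to 85175, 81771 and 71722 normalized counts with taurine, against 73838, 75818 and 81043 with R837 alone, so the groups overlapped.

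Because Trim30c was the cluster gene that passed the test, the 60 bases before its RefSeq start and before those of 5 of its neighbours are shown (GRCm38.p6, 5′ to 3′ on the gene's strand, which is the minus strand for all 6). Capitals mark a match to the pattern of an interferon-stimulated response element, spelled GAAA, then NN (any bases), then GAAA, searched on both strands and read here as its reverse complement. RefSeq places the starts of Trim12c, Trim30b and Trim30c inside the gene spans of the deposited data. On this strand the span of Trim30b begins at 104369884, so its window lies well inside the gene and does not describe that end. The span of Trim30c begins at 104400837, so nearly all of its window also lies inside the span and not before it.
Trim30c, chr7:104400779-104400838: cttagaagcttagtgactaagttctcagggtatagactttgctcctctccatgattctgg
Trim30b, chr7:104358647-104358706: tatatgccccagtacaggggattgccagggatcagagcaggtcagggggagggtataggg
Trim30a, chr7:104465194-104465253: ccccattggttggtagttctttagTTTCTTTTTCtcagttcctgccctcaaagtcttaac
Trim30d, chr7:104507850-104507909: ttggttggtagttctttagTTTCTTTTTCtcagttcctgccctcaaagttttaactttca
Trim12c, chr7:104353350-104353409: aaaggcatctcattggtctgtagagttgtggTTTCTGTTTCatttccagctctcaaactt
Trim5, chr7:104288107-104288166: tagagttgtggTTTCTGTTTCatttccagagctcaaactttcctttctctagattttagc

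The windows of Trim30a and Trim30d shared a run of 49 bases that includes the match, and those of Trim12c and Trim5 shared a run of 29. The Trim30c window held no match and shared at most 7 bases in a row with Trim30a or Trim30d and 9 with Trim30b. Over the full RefSeq promoter window (250 bases before to 50 after the start), 31 of the 43 members had an entry, and 8 of them (25.8%) held the pattern: Trim12a, Trim12c, Trim21, Trim26, Trim30a, Trim30d, Trim34a and Trim5. The same pattern was in 3.99% of all 27025 genes with a promoter entry. Among tested genes, 12.0% of the 410 with the pattern were higher and 1.22% lower with taurine, beside 3.66% and 3.14% of the 9615 without it. None of the 8 TRIM genes with the pattern passed the test in either direction, and their median log2 change was -0.05. At a share of 12.0%, a set of 8 genes can readily hold 0 calls. This count therefore does not set them apart from other genes with the pattern. A match describes the letters of the window and does not show that a factor binds there.

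Trim30c (chr7:104382065-104400837, mm10), a mouse paralogue of Trim30a, had 317, 335 and 377 normalized counts in R837 plus taurine libraries, against 155, 199 and 155 in R837 libraries. All 3 taurine libraries lay above all 3 libraries of R837 alone. The means were 343 ± 30.7 with taurine and 169.7 ± 25.6 without (SD, n = 3 each), a log2 change of 1.02 (SE 0.17, 95% interval 0.63 to 1.41, adjusted p = 0.0147 by limma). Of its 50-base exon windows 0.660% occurred without a mismatch in another gene, which was Trim30d. Alignment with mismatches was not examined. Trim30a and Trim30d had means of 43872 and 19194 normalized counts over the 6 libraries. A small misassigned part of their reads could alter the value of Trim30c, and this was not tested. The call was lost without taurine replicate 2 (adjusted p = 0.0536), without taurine replicate 3 (0.0647) and without R837 replicate 1 (0.0531), with a log2 change between 0.95 and 1.14 over all 6 omissions.

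The other Trim30 genes passed no test. Trim30a, which lowers NF-kB signalling in mouse cells through TAB2 and TAB3, had 49270, 46911 and 39654 normalized counts with taurine, against 38783, 40885 and 47727 with R837 alone. The groups overlapped, with the lowest value in R837 replicate 1 and the highest in taurine replicate 1, and the log2 change was 0.09 (95% interval -0.14 to 0.32). Trim30d, known as TRIM79 and able to restrict a tick-borne flavivirus in mouse cells, had 20067, 18879 and 17116 with taurine and 19501, 20845 and 18757 without, a log2 change of -0.08. Trim30b had 1684, 1874 and 1736 with taurine and 1592, 1595 and 1639.8 without. Its groups did not overlap, but the log2 change was 0.13 with an adjusted p of 0.397 by limma. Exon windows shared between Trim30a and Trim30d came to 6.53% of those of Trim30a, so a small part of their reads could be assigned to either.

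Trim12c, a mouse homologue of human TRIM5 that acts with TRAF6, had 5839.5, 6214 and 5656 normalized counts with taurine, against 5681, 4374 and 5072 with R837 alone. R837 replicate 1 lay above the lowest taurine library, and the log2 change of 0.23 had an adjusted p of 0.201 by limma. Trim12a (log2 change -0.07), Trim34a (-0.03), Trim34b (-0.04) and Trim5 (-0.23) also passed no test. Between 33.7% and 59.0% of the exon windows of Trim12c, Trim5, Trim34a and Trim34b occurred in other genes, so their separate values are uncertain. Added together, Trim34a and Trim34b gave 3634.5, 3487 and 3446 normalized counts with taurine and 3847, 3477 and 3471 without. Trim6, whose unanchored ubiquitin chains activate the kinase IKKepsilon, had between 20.2 and 30.8 with taurine and between 7.55 and 31.8 without, too few for a narrow interval (log2 change 0.55, 95% interval -0.79 to 1.89).

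**Figure D2:**
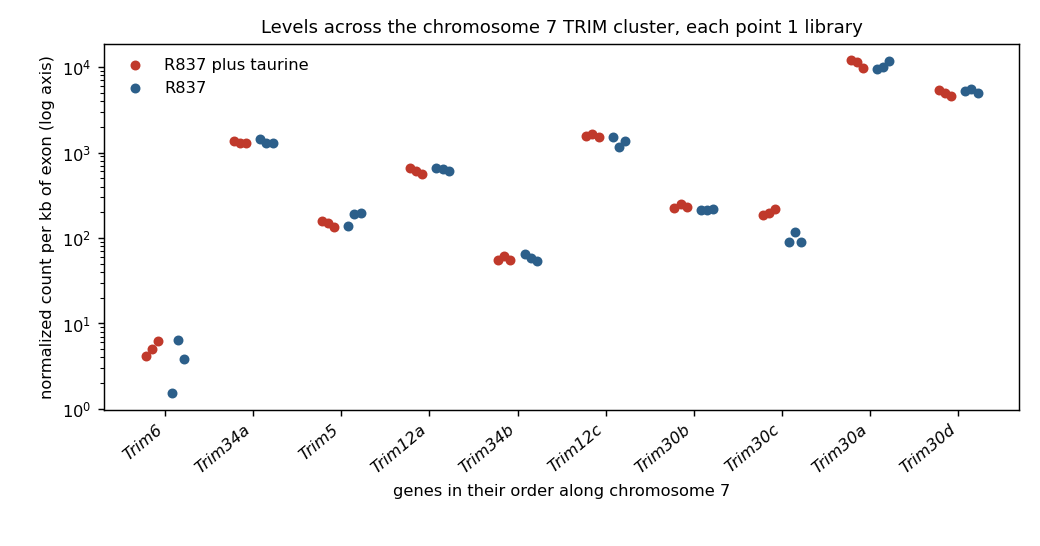
Normalized count per kb of exon (log axis) of the 10 TRIM genes of the chromosome 7 cluster, in their order along the chromosome, with R837 plus taurine (red) left of R837 (blue) and 1 point per library. Trim30a and Trim30d stand above the rest, and Trim30c is the gene whose red points all lie well above its blue points.

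Trim44 was the member that fell. It lacks a RING domain and instead carries a zinc finger of the type found in ubiquitin proteases. Trim44 (chr2:102300119-102407828, mm10) had 3090.4, 3100.3 and 3101 normalized counts in R837 plus taurine libraries, against 4059.8, 4420.3 and 3789 in R837 libraries. The 3 taurine libraries all lay below R837 alone. They were closer together than sampling of reads at this level would usually give, so their closeness does not measure precision. The means were 3097 ± 5.81 with taurine and 4089.6 ± 317 without (SD, n = 3 each), a log2 change of -0.40 (SE 0.08, 95% interval -0.58 to -0.21, adjusted p = 0.0267 by limma). This call held in 1 of the 6 fits that left out a library, the one without R837 replicate 3, and in the other 5 the adjusted p was between 0.0791 and 0.110 with a log2 change between -0.40 and -0.34. Without the trend in limma's prior variance the adjusted p was 0.124 for Trim44 and 0.0844 for Trim30c. With the replicate number as a block in limma, it was 0.0543 for Trim44 and 0.0397 for Trim30c. Once dependence on GC and exon length was taken out of each library, the log2 change of Trim44 was -0.29 (adjusted p = 0.0398 by limma).

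The next members by p-value were Trim43b, Trim37, Trim32 and Trim39, which are named here after their values were seen. Trim43b, of a family known from preimplantation embryos, had 292, 238 and 393 normalized counts with taurine, against 89.6, 157 and 180.1 with R837 alone. Every taurine library lay above R837 alone, and the log2 change was 1.14 (SE 0.29) with an adjusted p of 0.0558 by limma. On recovered reads Trim43b passed by DESeq2 (adjusted p = 0.00424) and not by edgeR (adjusted p = 0.0604). Its near copy Trim43c had 179.7, 152 and 159 with taurine and 214, 274 and 192 without, a log2 change of -0.45 with an adjusted p of 0.195 by limma.

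Trim43b and Trim43c thus had changes of opposite sign, and the difference between them was not tested. Of their exon windows 48.8% and 42.3% occurred in other genes, mostly in each other and in Trim43a, and 38.6% of the exon bases of Trim43c lie opposite the noncoding gene 9330159M07Rik. A sum over Trim43a, Trim43b and Trim43c does not depend on how reads were split among them. Shared reads that were dropped or counted more than once would still alter it. The sum was 473, 399.8 and 558 normalized counts with taurine, against 322, 444 and 382 with R837 alone. These sums overlapped between the groups.

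Trim37, a ligase of centrosomes and peroxisomes, had 370.5, 311 and 249 normalized counts with taurine, against 430.2, 547 and 460.2 with R837 alone, a log2 change of -0.64 (adjusted p = 0.0697 by limma). Trim32, an NHL-repeat ligase reported to ubiquitinate STING, had 116, 86.6 and 72.2 with taurine, against 191, 179 and 130.1 with R837 alone, a log2 change of -0.86 (adjusted p = 0.0808 by limma). Trim39, a ligase reported to inhibit the anaphase-promoting complex, had 1009.6, 1306 and 1169.8 with taurine, against 1524, 1412 and 1485 with R837 alone, a log2 change of -0.35 (adjusted p = 0.104 by limma). In all 3 genes each taurine library lay below each library of R837 alone, but none passed the adjusted threshold by limma. By DESeq2 on recovered reads Trim37 (adjusted p = 0.0211) and Trim32 (adjusted p = 0.0411) passed and Trim39 did not.

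**Figure D3:**
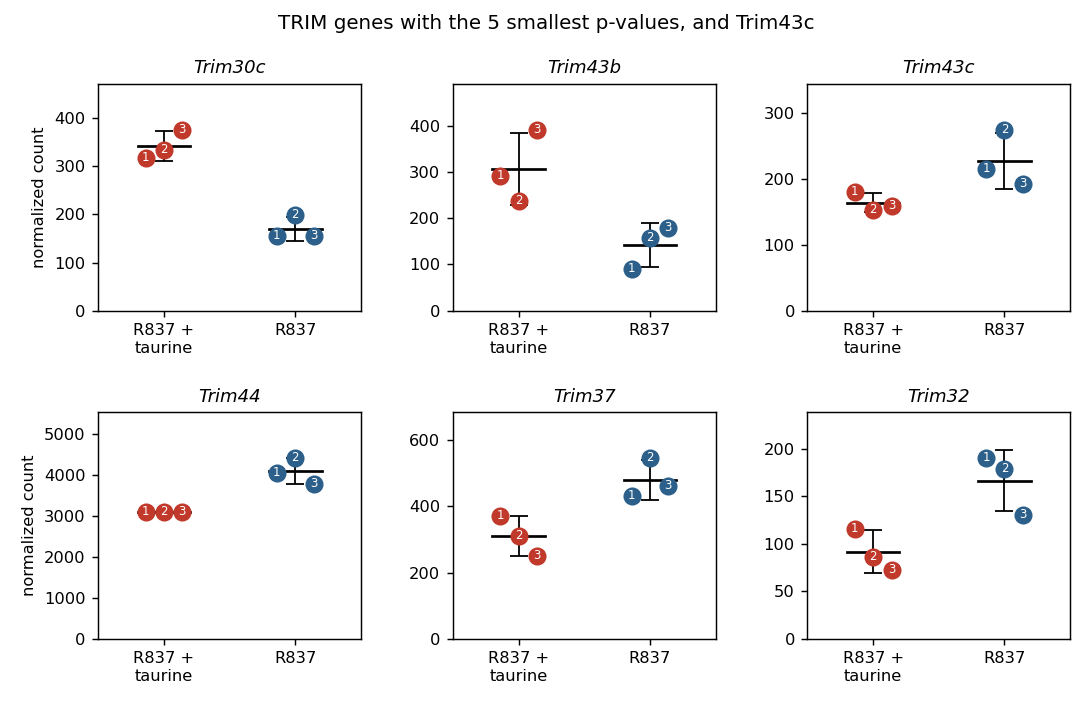
Normalized count per library (points, numbered by replicate) with the mean and SD (lines) for Trim30c, Trim43b, Trim43c, Trim44, Trim37 and Trim32, R837 plus taurine left of R837. Each pair of groups is separated, and Trim43b and Trim43c differ in opposite directions.

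TRIM genes that act on nucleic acid sensors and their adaptors made up the largest group. Of 21 such symbols 15 were members, and 0 passed the test, with 1 of them, Trim32, at an unadjusted p under 0.05 by limma (0.00853). Among all 15265 tested genes, 3622 had an unadjusted p under 0.05 by limma and 6.41% passed the test. On recovered reads edgeR called 0 of the 15, and DESeq2 called 1, Trim32. Their median log2 change was -0.08, and 4 had a positive value. Trim25, which attaches lysine-63 ubiquitin chains to the RNA sensor RIG-I, had 18154.5, 19092 and 8636 normalized counts with taurine, against 18583, 18264 and 18028 with R837 alone. Taurine replicate 3 stood apart from the other 5 libraries, by 1.08 on the log2 scale below their median, while those 5 lay close together. The log2 change was -0.34 (95% interval -0.93 to 0.24, adjusted p = 0.458 by limma) with this library and 0.03 without it.

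A single library at least 1 log2 unit away from 5 others that agree within 1.5-fold was rare, at 34 of 5441 genes (0.625%) with a mean of at least 1000. Trim26, a ligase reported to target IRF3, also rested on 1 library, with 3092, 2863 and 2727 with taurine, against 2452, 2426 and 5379.5 with R837 alone. Its log2 change was -0.14 with all libraries and 0.24 without R837 replicate 3, the highest value. Trim21, the cytosolic antibody receptor, had 688, 1428 and 1508 with taurine, against 1254, 1128 and 1108 with R837 alone, with taurine replicate 1 lowest. Its log2 change was -0.03 with that library and 0.34 without it, and neither value passed the test. Of the 43 members, 14 had their lowest value in taurine replicate 3 and 15 their highest in R837 replicate 1.

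Trim56, Trim14 and Trim8 had narrow intervals that include 0. Trim56, a ligase linked to cGAS and STING, had 4209, 4541 and 4094 normalized counts with taurine, against 4387, 3889.9 and 3857 with R837 alone, a log2 change of 0.08 (95% interval -0.11 to 0.27). Trim14, an adaptor of MAVS, had 4014, 4105 and 3748 with taurine and 4204, 3724 and 3463 without, a log2 change of 0.06 (95% interval -0.14 to 0.27). Since 31.3% of the exon bases of Trim14 overlap Nans on the other strand, this value is uncertain. Trim8, which in human plasmacytoid dendritic cells protects phosphorylated IRF7, had 1305, 1345 and 1375 with taurine and 1576, 1388 and 1261 without, a log2 change of -0.06 (95% interval -0.30 to 0.18).

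Trim65, a ligase of the RNA sensor MDA5, had a log2 change of -0.37 (95% interval -0.78 to 0.05). Trim13, a ligase anchored in the endoplasmic reticulum, Trim23, which carries an ARF-type GTPase domain, Trim62, which ubiquitinates the adaptor CARD9, and Trim27, Trim41, Trim45 and Trim68 had log2 changes between -0.26 for Trim45 and 0.19 for Trim13. Several of these intervals were wide, such as -1.78 to 1.26 for Trim45 and -1.22 to 0.76 for Trim68. Trim35, which is grouped with the remaining members and is reported to mark IRF7 for degradation, had 2424, 1859 and 2007 normalized counts with taurine, against 2509, 2055 and 1983 with R837 alone. Its groups overlapped, with a log2 change of -0.06.

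**Figure D4:**
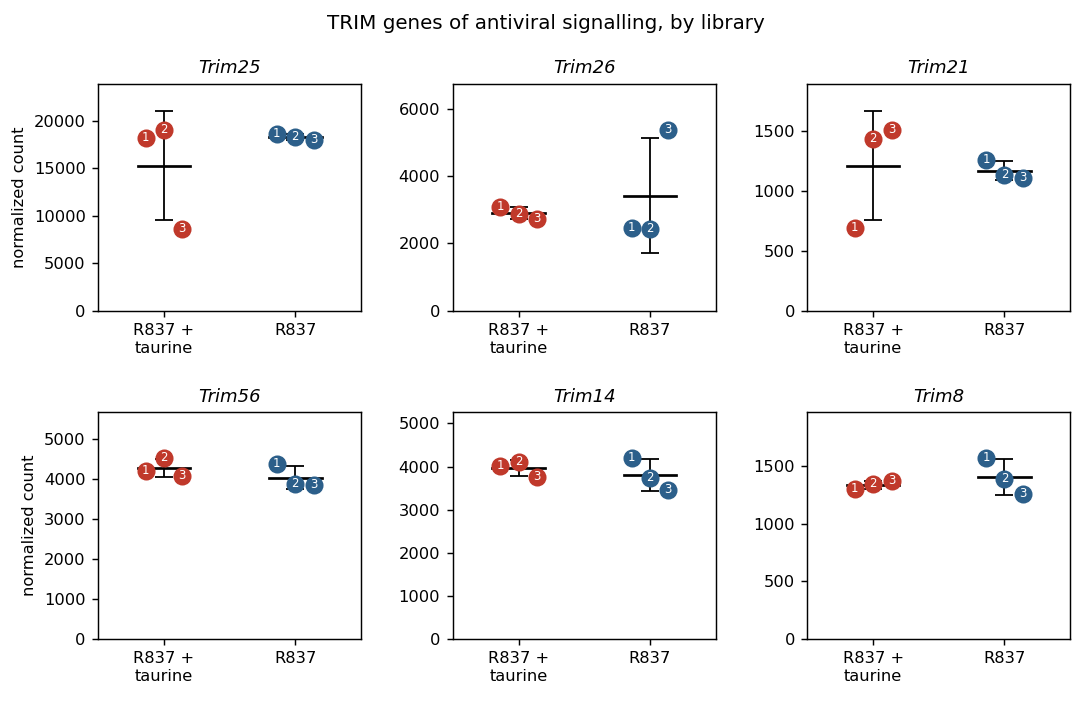
Normalized count per library (points, numbered by replicate) with the mean and SD (lines) for 6 TRIM genes of antiviral signalling, R837 plus taurine left of R837. For Trim25, Trim26 and Trim21 the wide SD comes with a single library that stands apart, and for Trim56, Trim14 and Trim8 the groups overlap.

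The TIF1 cofactors are nuclear TRIM proteins that bind chromatin and repress or tune transcription. Of 4 symbols 3 were members, and 0 passed the test by limma, edgeR or DESeq2. Their median log2 change was -0.22. An unadjusted p under 0.05 by limma was found for 2 of them and for 3622 of 15265 tested genes. Trim28 (KAP1), which silences endogenous retroviruses with the methyltransferase SETDB1, had 5536, 5132 and 5781 normalized counts with taurine, against 5768, 5415 and 5669 with R837 alone. Its groups overlapped, with a log2 change of -0.04 (95% interval -0.20 to 0.13). Trim24, a cofactor of nuclear receptors, had 1498, 1369.8 and 1262 with taurine, against 1759.6, 1719 and 1582 with R837 alone, a log2 change of -0.29 (adjusted p = 0.115 by limma). Trim33, which binds SMAD4, had 2375, 2336 and 2049 with taurine and 2398, 2681 and 2809 without, a log2 change of -0.22 (adjusted p = 0.210 by limma). The groups of Trim24 and of Trim33 did not overlap, with all taurine libraries lower, and neither gene passed the adjusted threshold. Once dependence on GC and exon length was taken out of each library, the log2 changes were -0.09 for Trim28, -0.18 for Trim24 and -0.06 for Trim33.

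Trim3, the member with NHL repeats outside the signalling group, had a log2 change of 0.00 (95% interval -0.22 to 0.23). Trim36, a microtubule-associated member, was the steadiest of all, with values between 1589 and 1647 with taurine and between 1601 and 1662 with R837 alone. Trim46, also linked to microtubules, had 51.5, 100.9 and 63.7 normalized counts with taurine and 87.7, 52.9 and 112.4 without, a log2 change of -0.22. Among the 12 members with other functions 1 was lower, Trim44, with a median log2 change of -0.30 and 2 positive values. Trim7, Trim11, Trim16, Trim17, Trim59 and Trim69 completed this group, with log2 changes between -1.02 for Trim17 and 0.02 for Trim16. Trim17 had 7.07, 23.8 and 4.25 normalized counts with taurine and 18.9, 20.2 and 19.8 without, so its value rested on few reads. On the same strand 19.0% of its exon bases overlap Hist3h2a, which had between 771 and 1098 normalized counts. Summed with overlapping genes, the log2 change of Trim17 was 0.22.

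Genes that encode TRIM-type proteins under other symbols and genes that work with TRIM ligases were counted beside the members. These lists were chosen with earlier results of these data known. Among all tested genes 3.75% were higher and 2.66% lower by limma. Without the trend in limma's prior variance, 1 of all 15265 tested genes was higher and 3 were lower. Most calls in these lists therefore did not hold in that fit. Of 4 tested genes of other symbols, Mid1 and Pml were higher, Cmya5 was lower and Mefv passed no test. Mid1, a microtubule-bound ligase, had 629, 650.1 and 653 normalized counts with taurine, against 348, 322 and 310.3 with R837 alone, a log2 change of 0.98 (adjusted p = 0.00544 by limma). Pml, the organizer of nuclear bodies, had 20895, 20479.7 and 21848 with taurine, against 17206, 15356 and 17807 with R837 alone, a log2 change of 0.33 (adjusted p = 0.0322 by limma). Each taurine library of Mid1 and of Pml lay above each library of R837 alone.

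Among partners and targets of TRIM ligases in antiviral signalling, 6 of 23 tested genes were higher with taurine and 0 lower. The shares over all tested genes were 3.75% higher and 2.66% lower. The list had a median log2 change of 0.13. The higher ones were the RNA sensor genes Ddx58 (RIG-I, 0.37), Ifih1 (MDA5, 0.32) and Dhx58 (LGP2, 0.34), the factor Irf7 (0.65), and Nmi (0.48) and Ifi35 (0.59). Ddx58, the target of TRIM25, had 10308, 10837 and 10763 normalized counts with taurine, against 8580.03, 8519 and 7591 with R837 alone. Irf7, the target of TRIM8 and TRIM35, had 36430.2, 36795 and 39709 with taurine, against 24748, 22975 and 24205 with R837 alone. Both genes were thus higher in every taurine library. The difference between this list and the TRIM members was not tested.

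Of 13 tested ubiquitin-conjugating (E2) enzyme genes 3 were higher and 0 lower: Ube2e3 (log2 change 0.40), Ube2v1 (0.38) and Ube2l6 (0.47), the last of which conjugates ISG15. Of 9 partners of the TIF1 cofactors 0 were higher and 3 lower, namely Setdb1 (-0.37), Chd3 (-0.53) and Smad3 (-0.54), with a median log2 change of -0.21. For both lists, the shares over all tested genes were 3.75% higher and 2.66% lower. Setdb1, the methyltransferase recruited by TRIM28, had 2275, 2272 and 2385 normalized counts with taurine, against 3072, 3207 and 2699.6 with R837 alone. Its 3 taurine libraries all lay below R837 alone, while Trim28 itself overlapped between the groups.

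**Figure D5:**
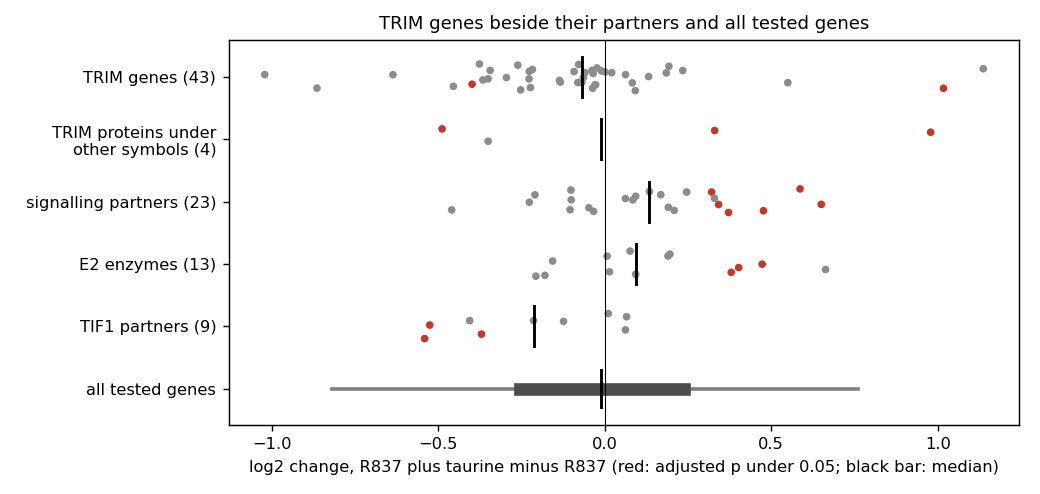
Log2 change, R837 plus taurine minus R837, of each tested gene in the TRIM family and in 4 related lists, with genes at an adjusted p under 0.05 in red and list medians as black bars. The bottom row shows the 5th to 95th (thin) and 25th to 75th percentile (thick) of all tested genes. Red points lie on both sides of 0 in the TRIM family and to the right of 0 in the signalling partners and E2 enzymes.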

How the data were processed

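Messenger RNA of 6 libraries, 3 per group, was analysed. The authors deposited a signal for every gene, which the file headers name normCounts. Within each library 100% of values were whole multiples of 1 step (0.943 to 1.06) to within 0.001, so reads could be recovered. The submitters' processing notes list HISAT2 and StringTie and the builds mm8 and mm10, without role or version. How reads were counted and normalized, and whether strand was used, is not given in the sources used here. Coordinates were compared with GENCODE M21: of 52403 shared identifiers 95.2% had the same coordinates, and the build is therefore taken as mm10.

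Genes reaching 10 normalized counts in 3 or more libraries were tested on log2 of the value plus a pseudocount of 1, which understates changes of low genes, with limma 3.58.1 in R 4.3.3 (trend in the prior variance, two-sided, Benjamini-Hochberg). edgeR 4.0.16 and DESeq2 1.42.0 were run on the recovered reads as alternatives. Library pairs within a group differed by more than sampling noise. Promoter sequences are RefSeq's (GRCm38.p6). Intervals of 95% come from limma and cover the spread between libraries.

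Members, role groups and lists were chosen with earlier results of these data known. Every called member, up to 4 members per role group with the highest level, and members at the floor were named by rule, and all others after their values were seen. The removal of length and GC trends was added after the data were seen.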

Additional observations from a re-analysis of the deposited data

How the results depend on the processing

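Trim30c and Trim44 kept their direction in all 19 alternatives. Over all alternatives and members, 809 values were compared with the reported ones: 745 kept direction and side of the threshold, 11 lost and 5 gained a call, 0 called values reversed, and 48 values of 21 members, never called, changed sign. With a mean of at least 50 required, 2 members were called higher (Trim43b joined). Without the trend in limma's prior, 0 members were called higher and 0 lower. Over all 15265 tested genes, that fit without trend called 1 higher and 3 lower. Its unadjusted p was under 0.05 for 8 members and for 3217 genes. By edgeR 1 member was higher and 1 lower. DESeq2 called 2 members higher and 3 lower, and 995 genes higher and 921 lower. With no filter on low values 333 genes were higher and 214 lower. With 1 library left out, between 0 and 2 members were higher and between 0 and 1 lower, and between 101 and 767 genes were higher and between 33 and 710 lower. The genes called in either direction numbered 318, 250 and 153 without taurine replicate 1, 2 and 3, and 326, 134 and 1477 without R837 replicate 1, 2 and 3. The cause of these shifts was not tested.

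Deviations of same-numbered libraries had correlations of -0.00264, -0.00681 and -0.0434, so the values showed no pairing by replicate number. These correlations cannot tell whether samples were prepared in pairs, and the labels do not say. With the replicate number as a block, 1 member was higher and 0 lower, and 365 genes were higher and 250 lower; Trim44 then had an adjusted p of 0.0543. Members with few reads, such as Trim6, Trim17 and Trim45, have 95% intervals over 2 log2 units wide.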
